A study of Homo sapiens with 16 samples.

Results

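*FAM174B*, *NARF*, *SAP30* and *DENND1A* each had a HIF-1α peak near a promoter in all 8 HIF-1α libraries, from 4 cell lines, and few or no HIF-2α peaks. At the HIF-1α sites of *FAM174B* and *SAP30* none of the 8 HIF-2α libraries held a peak, although 1 HIF-2α peak lay near an internal start site of *FAM174B*, far from its HIF-1α site. *NARF* had a HIF-2α peak at its HIF-1α site in 1 library of PC3 cells, and *DENND1A* had one in both HIF-2α libraries of HCT116 cells. The HIF-1α peaks of *FAM174B* and *NARF* ranked among the best 20 of every HIF-1α list, with median score percentiles of 99.6 and 99.7. Those of *SAP30* and *DENND1A* ranked lower, with medians of 82.2 and 93.5.

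These 4 of 19794 protein-coding genes were chosen by earlier results of the same peak lists, as genes with sites of HIF-1α and not of HIF-2α. Their contrast between the isoforms is therefore given as a description, with no test. A peak was counted for a gene when its center lay within 20 kb of the start site of any protein-coding transcript of that gene. Of the 23398 deposited peaks, 38 met this rule for the 4 genes, 33 from HIF-1α libraries and 5 from HIF-2α libraries.

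The lists came from ChIP-seq, in which DNA bound by a protein is pulled down with an antibody and sequenced, and stretches rich in reads are reported as peaks. A549 (lung), HCT116 (colorectal), PC3 (prostate) and T47D (breast), all established human cancer cell lines, were each incubated in 0.5% oxygen for 16 h, and no library from cells in normal oxygen was analysed here. Chromatin of each line was precipitated with the antibody PM14 against HIF-1α or PM9 against HIF-2α, giving 8 groups of 2 replicate libraries, numbered 2 and 3 in A549 and HCT116 and 1 and 2 in PC3 and T47D. Whether replicates were separate cultures is not given in the sources used here, so p-values measure only the spread between these libraries, which may be technical. Each list ended at a score of about 50. The HIF-1α lists held from 382 to 4505 peaks and the HIF-2α lists from 275 to 1382. Within a line the HIF-2α lists were the shorter in HCT116, PC3 and T47D and the longer in A549. Read depth is unknown, so a gene with no peak in a list was below the authors' threshold there and was not shown to be unbound. Since depth was unknown, a peak is described by its score percentile, the percent of peaks in its own list with a score no higher than its own.

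The label under which the genes were grouped, sites in HIF-1α groups only, held in part. Within 20 kb, *SAP30* had 0 HIF-2α libraries with a peak, *FAM174B* had 1, and *NARF* and *DENND1A* had 2 each. For *DENND1A* these were both replicates of a group, HCT116 HIF-2α, which goes against the label. The 4 genes are referred to by name below.

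HIF is a pair of an oxygen-regulated α subunit and the constant subunit HIF-1β. With oxygen present, prolyl hydroxylases mark the α subunits for capture by the VHL protein and degradation. In hypoxia HIF-1α and HIF-2α accumulate, join HIF-1β and bind the same core motif, RCGTG (ACGTG or GCGTG), in the hypoxia response elements of genes of glycolysis, oxygen delivery and other adaptations. HIF-1 is known for binding near promoters and HIF-2 for binding farther away. The 4 genes have separate roles. *SAP30* encodes a subunit of the SIN3-histone deacetylase corepressor, *DENND1A* an activator of the endosomal GTPase Rab35 that works at clathrin-coated vesicles, *NARF* a nuclear protein that recognizes the farnesylated tail of prelamin A, and *FAM174B* a small membrane protein of the FAM174 family.

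The sequences under the peaks are shown first, because the sites of the 4 genes carried different arrangements of the core motif. For each gene the 120 bases with the most RCGTG copies inside its HIF-1α site, outside annotated untranslated regions, are printed 5′ to 3′ on the strand of the gene, from GRCh37. A further stretch is printed where a CACGTG, or the RCGTG nearest to the middle of the site among those outside annotated untranslated regions, lay outside the first. Capitals mark RCGTG or its reverse complement. CACGTG reads the same on both strands and holds 2 overlapping RCGTG, 1 per strand. The *FAM174B* stretches lie at chr15:93352330-93352449 and chr15:93352530-93352649 on the minus strand, in an intron. That of *NARF* lies at chr17:80415936-80416055 on the plus strand, upstream of the first start. That of *SAP30* lies at chr4:174290939-174291058 on the plus strand, upstream of the gene. Those of *DENND1A* lie at chr9:126692906-126693025 and chr9:126692499-126692618 on the minus strand, also upstream.
FAM174B, most copies: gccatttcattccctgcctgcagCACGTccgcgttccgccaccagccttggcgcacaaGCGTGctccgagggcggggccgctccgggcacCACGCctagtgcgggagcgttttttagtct
FAM174B, CACGTG: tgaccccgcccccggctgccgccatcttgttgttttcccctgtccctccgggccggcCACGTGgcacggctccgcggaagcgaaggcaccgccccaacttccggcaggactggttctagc
NARF: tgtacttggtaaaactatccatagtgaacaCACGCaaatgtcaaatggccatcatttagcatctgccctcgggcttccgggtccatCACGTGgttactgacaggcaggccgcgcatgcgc
SAP30: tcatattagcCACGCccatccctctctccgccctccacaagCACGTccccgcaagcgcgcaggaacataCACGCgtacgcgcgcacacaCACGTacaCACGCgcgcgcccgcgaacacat
DENND1A, CACGTG: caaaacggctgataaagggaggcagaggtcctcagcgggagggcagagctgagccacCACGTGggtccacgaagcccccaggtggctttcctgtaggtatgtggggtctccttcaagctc
DENND1A, nearest to the middle: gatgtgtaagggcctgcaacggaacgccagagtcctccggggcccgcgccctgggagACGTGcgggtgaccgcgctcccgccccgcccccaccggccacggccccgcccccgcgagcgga

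*FAM174B* showed 3 separate RCGTG copies within its first stretch and a CACGTG in its second. In *NARF* a CACGTG and a single further copy stood together. *SAP30* had the densest group, 5 copies in 120 bases, interspersed with alternating CG and CA dinucleotides and with no CACGTG. *DENND1A* had a CACGTG and, nearer to its start sites, a lone ACGTG.

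*FAM174B* had the highest-ranking site, among those with peaks in all 8 HIF-1α lists, for which no HIF-2α list held an overlapping peak. Its 8 HIF-1α peaks merged to chr15:93351260-93353292 and shared 960 bp (chr15:93351958-93352917). The middle of the shared stretch lay 591 bp inside the gene, in an intron, from the outermost of 8 distinct protein-coding start sites (93353028, minus strand). In A549 HIF-1α replicates 2 and 3 the peak ranked 2 of 382 (score 1126) and 4 of 629 (score 1876). In HCT116 it ranked 14 of 4505 (score 2418) in replicate 2 and 19 of 4465 (score 1681) in replicate 3. In PC3 it ranked 14 of 1517 (score 917) and 14 of 3413 (score 1982), and in T47D 6 of 761 (score 1719) and 6 of 711 (score 1952), for replicates 1 and 2. Percentiles thus ran from 99.1 to 99.7 over lists that differed widely in length.

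The single HIF-2α peak counted for *FAM174B* was not at this site. It came from T47D HIF-2α replicate 2, at chr15:93187980-93188747, with a score of 93.1 and rank 143 of 424. It lay 464 bp from an internal protein-coding start site of the gene and 164 kb from the middle of the HIF-1α site, and 0 HIF-1α lists held an overlapping peak there. With 1 start site per gene, the outermost, *FAM174B* had 0 HIF-2α libraries with a peak. The start sites of *FAM174B* spread over 170554 bp, so the 20 kb rule searched several separate stretches of this gene.

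*NARF* had the highest median HIF-1α percentile of the 4 genes. They merged to chr17:80415268-80417711 and shared 1498 bp (chr17:80415562-80417059), a stretch that spans many of the gene's start sites and its first untranslated exons, on the plus strand. In A549 the peak ranked 3 of 382 (score 1071) and 3 of 629 (score 2269) in replicates 2 and 3. In HCT116 it ranked 2 of 4505 (score 3100) and 6 of 4465 (score 2596). The gene's lowest ranks were 7 of 761 (score 1689) and 7 of 711 (score 1911), in T47D, while PC3 replicate 1 gave 5 of 1517 (score 1431) and replicate 2 gave 3 of 3413 (score 3100). Percentiles ran from 99.2 to 99.98 and the 4 cell lines stood close together. The score of 3100 was shared by 5 peaks of HCT116 replicate 2 and by 3 peaks of PC3 replicate 2, so ranks at the top of those lists were tied.

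HIF-2α peaks near *NARF* were weak and appeared in 1 replicate at a time. At the promoter, PC3 HIF-2α replicate 2 held a peak (chr17:80415716-80417350) with a score of 68.0, rank 679 of 1290 and percentile 47.4, overlapping all 8 HIF-1α peaks. PC3 HIF-2α replicate 1, a list of 275 peaks, held none. The part of list length in this difference was not tested. In HCT116 HIF-2α replicate 2 a peak at chr17:80396623-80398377 fell within the limit at 18.6 kb, with a score of 52.0 and rank 1104 of 1264. It overlapped 0 HIF-1α peaks and covered an annotated start of a transcript of the neighboring *HEXD*, a hexosaminidase gene. The nearest peak beyond the limit, also in HCT116 HIF-2α replicate 2, lay 21.7 kb away with a percentile of 43.2.

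The *NARF* site cannot be assigned to *NARF* alone by distance. *CYBC1*, which encodes a chaperone of the phagocyte NADPH oxidase, has start sites within 20 kb on the opposite strand, and the same 8 HIF-1α peaks were its best. The antisense transcript *NARF-AS2* starts inside the site. At the *FAM174B* site no start site of another protein-coding gene lay within 20 kb of the middle, but 2 long noncoding RNAs start inside the site and the noncoding *CHASERR* starts 10333 bp from its middle.

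*SAP30* was the member with no HIF-2α peak under any distance from 1 to 100 kb. Its best HIF-1α peaks merged to chr4:174290440-174291761 and shared 419 bp (chr4:174290845-174291263), about 1 kb upstream of the only protein-coding start site (174292105, plus strand). The divergent noncoding transcripts *SAP30-DT* and a noncoding transcript of *SAP30* itself (start 174291120) begin inside the site. In A549 the percentiles were 49.5 in replicate 2 (rank 194 of 382, score 67.5) and 78.9 in replicate 3 (rank 134 of 629, score 159). In HCT116 they were 96.8 (rank 147 of 4505, score 526) and 93.9 (rank 272 of 4465, score 260). In PC3 they were 67.6 (rank 493 of 1517, score 84.4) and 90.3 (rank 333 of 3413, score 231), and in T47D 85.5 (rank 111 of 761, score 185) and 75.8 (rank 173 of 711, score 138).

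The *SAP30* values of a cell line thus lay up to 29.4 percentile points apart between its replicates, and the ranges of A549, PC3 and T47D overlapped. A second, separate HIF-1α peak stood downstream of the coding start in PC3 replicate 2 (chr4:174292669-174293579, score 74.1, percentile 43.5). No peak of any library fell between 20 kb and 100 kb from *SAP30*. At most 1 kb from the coding start, 3 of the 8 HIF-1α libraries kept a peak, because the site lies at about that distance.

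*DENND1A* had peaks of both isoforms at its start in HCT116 and had HIF-1α peaks alone in the other lines. Its HIF-1α peaks merged to chr9:126691435-126693347 and shared 820 bp (chr9:126692231-126693050), a stretch covering the 3 protein-coding start sites (126692386 to 126692431, minus strand). In HCT116 the percentiles were 97.8 (rank 102 of 4505, score 673) and 98.5 (rank 70 of 4465, score 709) for HIF-1α. The HIF-2α peaks of the same line gave 83.1 (rank 214 of 1264, score 107) and 84.2 (rank 143 of 901, score 105), with centers 62 and 78 bp from the middle of the HIF-1α stretch. The HIF-2α replicates lay close together, with a mean of 83.7 ± 0.771 (SD, n = 2).

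Outside HCT116 the HIF-1α peak of *DENND1A* varied most in A549. It had percentiles of 44.2 (rank 214 of 382, score 63.0) in A549 replicate 2 and 84.4 (rank 99 of 629, score 205) in replicate 3. In PC3 the values were 96.0 (rank 62 of 1517, score 372) and 97.0 (rank 103 of 3413, score 567), and in T47D 88.4 (rank 89 of 761, score 237) and 91.0 (rank 65 of 711, score 333). A549, PC3 and T47D had 0 HIF-2α libraries with a peak at the gene. The HIF-2α lists without it held 1382 and 1056 peaks in A549, 275 and 1290 in PC3, and 423 and 424 in T47D. Those of HCT116, with it, held 1264 and 901. The part of list length in this was not tested.

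**Figure D1:**
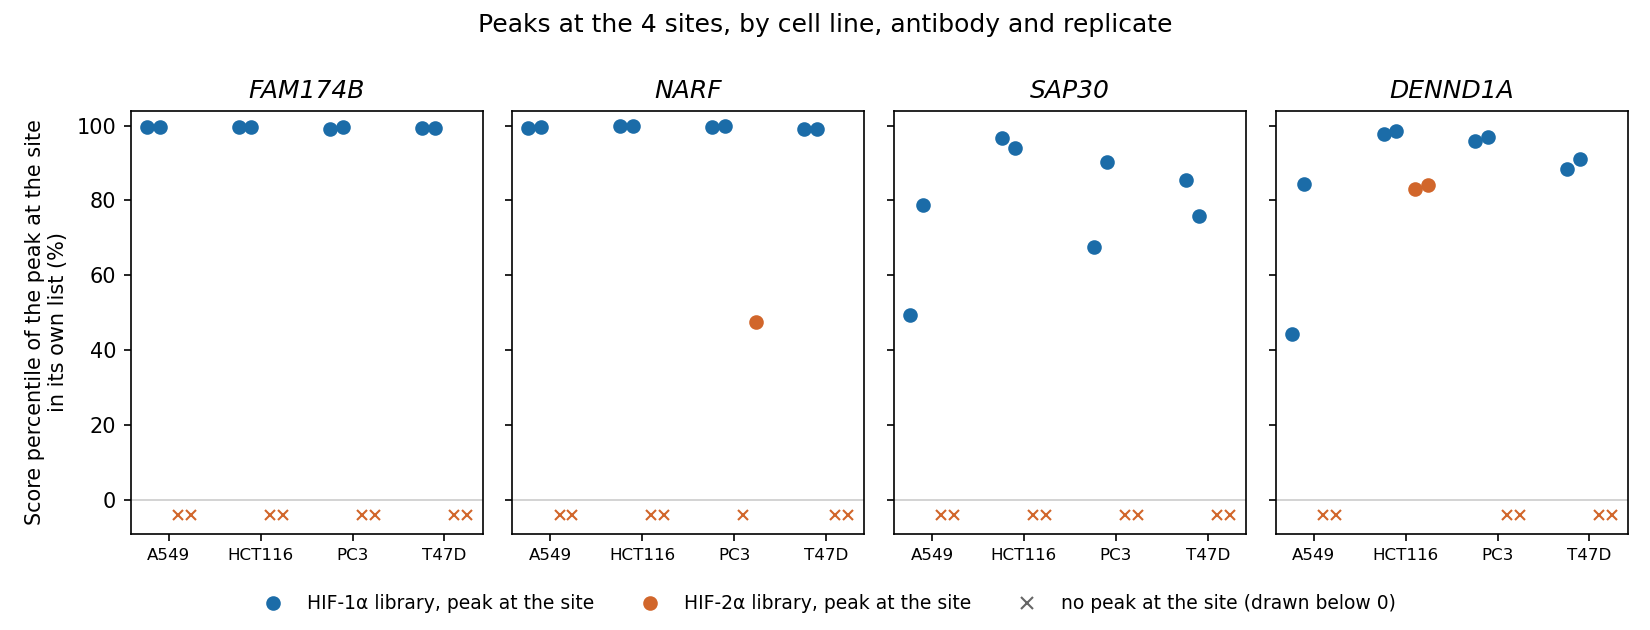
Score percentile (%) of the peak at the site of each gene in its own list, by cell line (x axis), with HIF-1α libraries in blue, HIF-2α libraries in orange, 1 point per library and crosses for libraries with no peak at the site. The HIF-1α points of *FAM174B* and *NARF* all lie above 99, those of *SAP30* and *DENND1A* spread from 44.2 to 98.5, and the orange points are 1 for *NARF* in PC3 and 2 for *DENND1A* in HCT116.

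**Figure D2:**
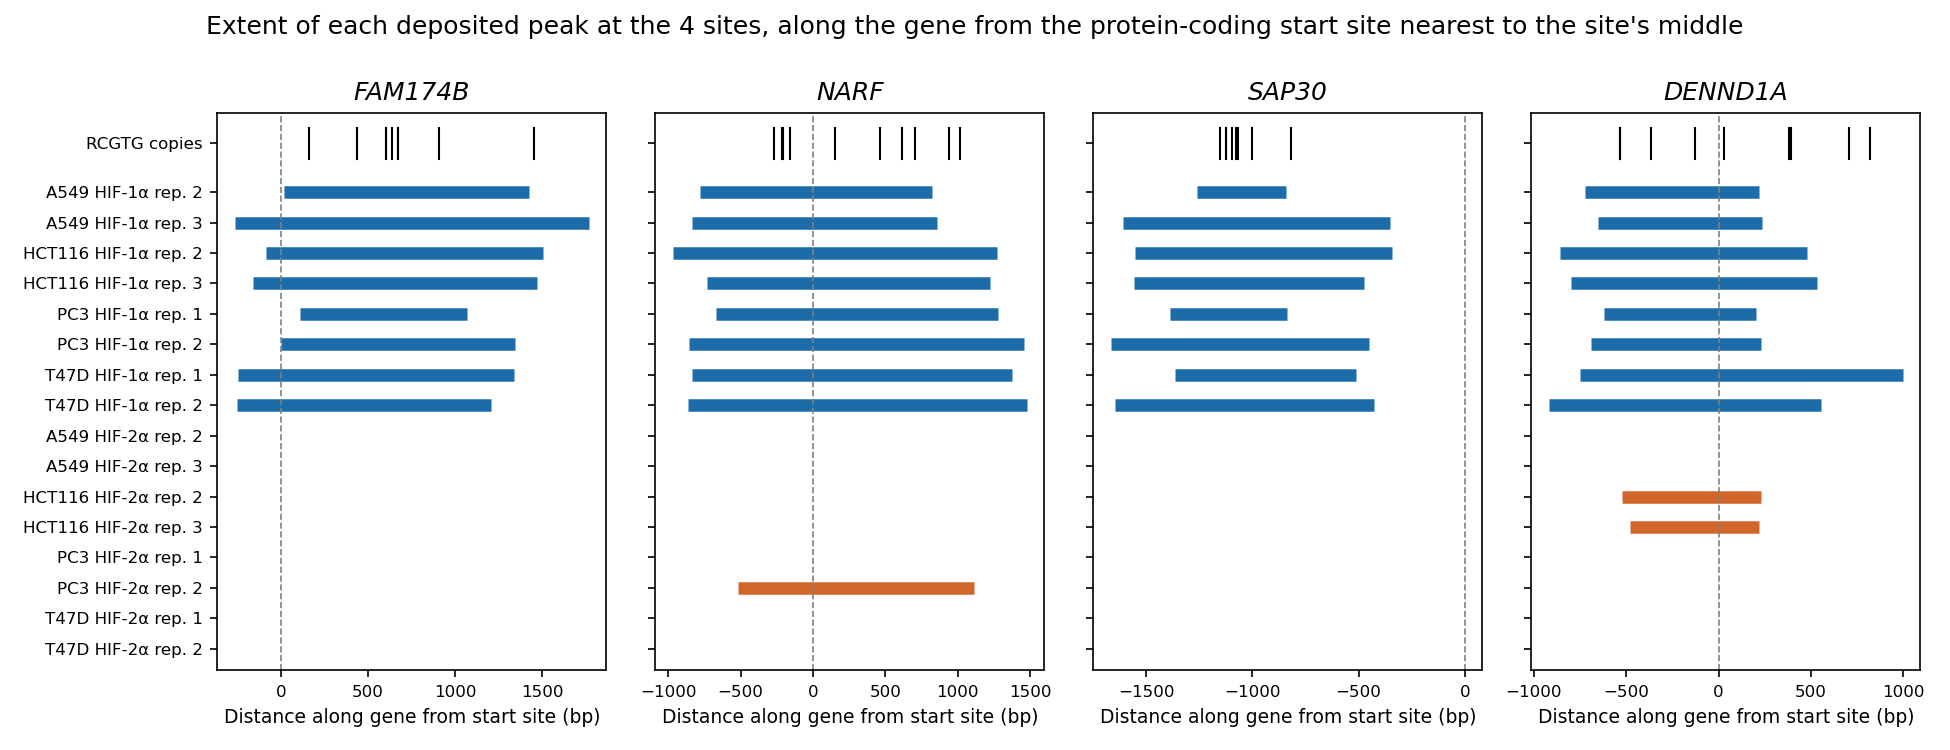
Extent of the deposited peaks at each site (bars, blue for HIF-1α and orange for HIF-2α, 1 row per library) in bp along the gene from the protein-coding start site nearest to the middle of the site (dashed line), with ticks for every RCGTG in the merged site. The sites of *NARF* and *DENND1A* span the start, that of *FAM174B* lies mostly inside the gene and that of *SAP30* lies about 1 kb upstream.

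The HIF-1α peaks of *NARF* and *FAM174B* were also the widest of the 4 genes. Median HIF-1α widths were 2085 bp at *NARF*, 1524.5 bp at *FAM174B*, 1145 bp at *SAP30* and 1135 bp at *DENND1A*. When the lists were ranked by width in place of score, the median percentile stayed high for *NARF* (93.2), was 74.7 for *FAM174B*, and was 52.6 for *DENND1A* and 31.2 for *SAP30*. Among the best 275 peaks of each list, *NARF*, *FAM174B* and *DENND1A* kept a HIF-1α peak in 8 libraries and *SAP30* in 6.

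The comparison that the choice of genes had not used was that between cell lines within HIF-1α. It was made for all 181 genes with a HIF-1α peak within 20 kb in each of the 8 HIF-1α libraries, which are 0.914% of the 19794 genes. The variance of the 4 cell-line means of the percentile was set against all 105 divisions of the libraries into pairs (one-sided exact permutation test, smallest possible p 0.00952), with Benjamini-Hochberg adjustment over the 181 genes. At an adjusted p below 0.05, 45 genes were called (24.9%).

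Of the 4 members *DENND1A* was called, a share like that of all genes tested, and its p was the smallest possible, as in all 45 genes called. The mean percentile was lowest in A549 (64.3 ± 28.4), higher in T47D (89.7 ± 1.81) and PC3 (96.5 ± 0.730) and highest in HCT116 (98.1 ± 0.493), each ± SD with n = 2 (exact permutation p = 0.00952, adjusted p = 0.0383). The call was lost on the log10 score (exact permutation p = 0.00952, adjusted p = 0.101), where only the adjustment over the genes moved. With each library's median taken out it was also lost (exact permutation p = 0.0190, adjusted p = 0.0616). It was lost too with labels exchanged only within a replicate number (exact permutation p = 0.0417, the smallest possible there, adjusted p = 0.106). Leaving out any single library of HCT116, PC3 or T47D, which leaves that line a single library, ended the call as well. It held without A549 replicate 2 and without A549 replicate 3. HCT116 and PC3 means differed by less than 2 points, and A549 stood lowest, as it did in 59.7% of the 181 genes.

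For the other members the lines were not distinguished at this threshold. *NARF* had means of 99.2 ± 0.0392 in T47D, 99.6 ± 0.145 in A549, 99.8 ± 0.145 in PC3 and 99.9 ± 0.0635 in HCT116, each ± SD with n = 2 (exact permutation p = 0.0190, adjusted p = 0.0507). In the same exact permutation test *NARF* passed with peaks at most 1 kb from a start site (adjusted p = 0.0474). At 1 kb its unadjusted exact permutation p was again 0.0190, so only the adjustment over the genes moved. On the log10 score *NARF* did not pass (exact permutation p = 0.524, adjusted p = 0.582), nor on the logit scale (adjusted p = 0.113). It also did not pass with each library's median taken out (exact permutation test, adjusted p = 0.0831). The same held with labels exchanged only within a replicate number (exact permutation test, adjusted p = 0.106). *FAM174B* had 99.3 ± 0.0327 in T47D, 99.4 ± 0.337 in PC3, 99.6 ± 0.152 in A549 and 99.7 ± 0.0810 in HCT116 (exact permutation p = 0.371, adjusted p = 0.389). *SAP30* had 64.2 ± 20.8 in A549, 78.9 ± 16.1 in PC3, 80.7 ± 6.88 in T47D and 95.3 ± 2.0 in HCT116 (exact permutation p = 0.267, adjusted p = 0.296). HCT116 had the highest mean in all members but in 79.0% of the 181 genes as well, and its lists were the longest, so that line and list length cannot be told apart. Ranks ran from 2 to 7 at *NARF* and from 2 to 19 at *FAM174B*, in lists of 382 to 4505 peaks. Percentiles this near to 100 depend on list length as well as on rank. The part of list length in their differences between lines was not tested.

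The background of the isoform contrast was taken from the same 181 genes. Of these, 35 (19.3%) had no HIF-2α peak within 20 kb, *SAP30* among them, 17 had a HIF-2α peak in 1 library, as did *FAM174B*, and 22 in 2 libraries, as did *NARF* and *DENND1A*. At the other end, 28 genes had one in all 8. Over the 143 merged sites with peaks from all 8 HIF-1α libraries, 29 (20.3%) held no overlapping HIF-2α peak, *FAM174B* and *SAP30* being 2 of them. *SAP30* is thus 1 of many such genes, with a rank of 17 by median percentile among the 29 sites.

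*FAM174B* and *NARF* combined few HIF-2α peaks with a high rank among HIF-1α peaks. Genes with no HIF-2α peak were 15 of 30 genes with a median HIF-1α percentile under 80, 15 of 55 from 80 to 90, 4 of 39 from 90 to 95, 1 of 41 from 95 to 99 and 0 of 16 from 99 up. Among these 16, *FAM174B* was the only gene with a HIF-2α peak in fewer than 2 libraries, *NARF* and *CYBC1* followed with 2 each, and the median was 6.5. The 16 genes are not 16 separate sites. *NARF* and *CYBC1* share their best peaks, and *ANKRD37*, *LRP2BP* and *UFSP2*, for example, have equal medians. Of the best 20 peaks of each HIF-1α list, 2 to 5 overlapped no HIF-2α peak of that line. This rule is looser, since HIF-2α peaks of other lines and those nearby without overlap were not counted. Of the 20 highest-ranking of the 143 sites, 1 held no overlapping HIF-2α peak of any line. By median percentile, the *NARF* site ranked 4, the *FAM174B* site 7, the *DENND1A* site 57 and the *SAP30* site 112 of the 143 sites.

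**Figure D3:**
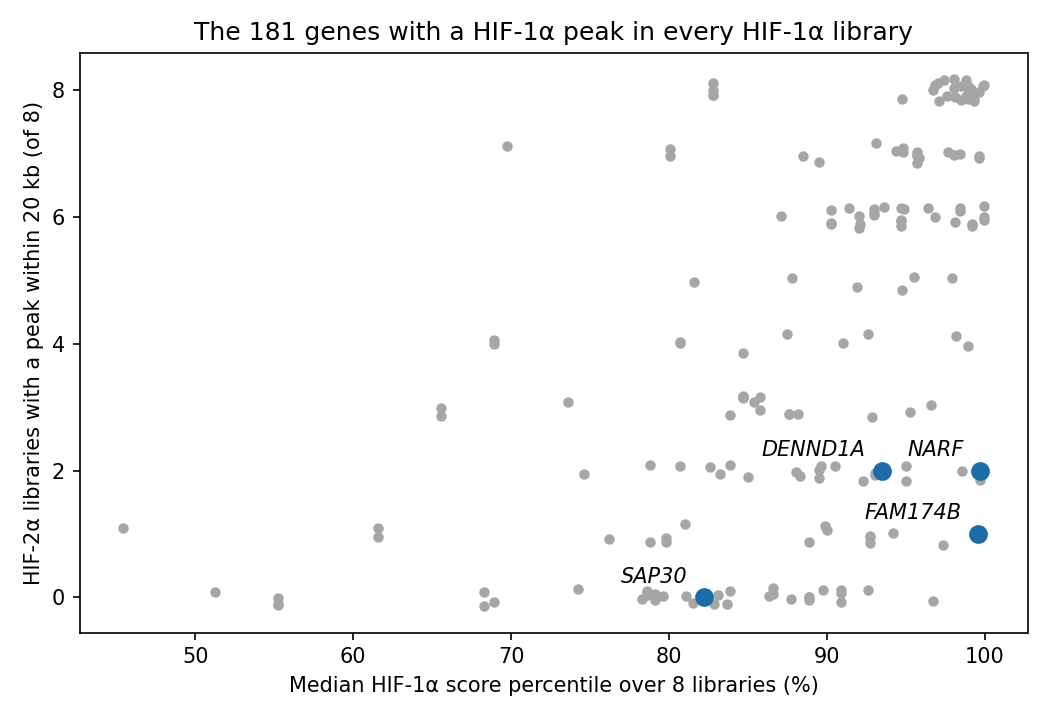
Median HIF-1α score percentile over the 8 HIF-1α libraries (x axis, %) against the number of HIF-2α libraries with a peak within 20 kb (y axis, of 8) for the 181 genes, 1 point each, with small vertical offsets on the gray points. *FAM174B* (99.6, 1 library) and *NARF* (99.7, 2 libraries) lie at the right edge, where most other genes have 6 to 8, and *SAP30* (82.2, 0 libraries) lies in a row of 35 genes.

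Several of the HIF-2α peaks came from single lists. Among the 17 genes with a HIF-2α peak in just 1 library, it was in PC3 HIF-2α replicate 2 for 5, in HCT116 HIF-2α replicate 2 for 5 and in T47D HIF-2α replicate 2 for 1, *FAM174B*. Without PC3 HIF-2α replicate 2, *NARF* had 1 HIF-2α library, the distant HCT116 peak. With scores at or above the median of all peaks, 74.55, *NARF* had 0 HIF-2α libraries, whereas *FAM174B* kept 1 and *DENND1A* kept 2.

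Genes with the most similar pattern were found by the mean absolute difference of best-peak percentile over the 16 libraries, with 0 for no peak, leaving out genes with the same best peaks (*CYBC1* for *NARF*). For *FAM174B* they were *RLF*, a zinc finger gene (6.09 points), and *COX20*, a cytochrome c oxidase assembly factor (7.53 points). *COX20* (5.61 points) was also near *NARF*, after the histone demethylase *KDM4C* (5.02 points), whose lone HIF-2α peak was in the same library as the promoter peak of *NARF*, PC3 HIF-2α replicate 2, at a percentile of 48.6. For *SAP30* they were *WSB1*, an adaptor of ubiquitin ligases (2.13 points), and *EPOP*, a partner of Polycomb and elongin (2.20 points).

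No listed relative or partner of the members had HIF-1α peaks in all 8 libraries. The members were chosen for their HIF-1α sites, so this follows in part from the choice. Over all protein-coding genes 0.914% had a HIF-1α peak in all 8 libraries. Of 18 SIN3-histone deacetylase subunit genes, 10 had a HIF-1α peak within 20 kb in at least 1 library, against 41.4% of all protein-coding genes, and *SAP30* was the only one with a peak in all 8. *BRMS1* had HIF-1α peaks in 6 libraries and *SINHCAF* in 5, and the close paralog *SAP30L* in 0. *SUDS3* and *BRMS1* were the 2 subunit genes with a HIF-2α peak, each in PC3 replicate 2 alone. For comparison, 14.3% of all genes had a HIF-2α peak in at least 1 library.

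Of 8 genes of prelamin A processing and relatives of *NARF*, with *NARF* counted among them, all had a HIF-1α peak in at least 1 library and only *NARF* in all 8. Over all protein-coding genes these shares were 41.4% and 0.914%, and the difference was not tested. The peaks differed widely in rank: a gene's highest HIF-1α percentile ran from 4.14 at *ICMT* to 99.98 at *NARF*. *FNTB*, a subunit of the farnesyltransferase that modifies prelamin A, had one in 7 libraries, with a median percentile of 84.2, and a HIF-2α peak in PC3 replicate 2 only. The prelamin A gene *LMNA* had a HIF-1α peak in 1 library and HIF-2α peaks in 2.

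Of 18 DENN domain and Rab35 genes, 15 had a HIF-1α peak in at least 1 library and *DENND1A* alone in all 8. The shares over all protein-coding genes were again 41.4% and 0.914%, with no test made. *DENND4B* came nearest, with HIF-1α peaks in 7 libraries. Like *DENND1A* it had HIF-2α peaks in both HCT116 libraries and no others, at percentiles of 50.6 and 73.7. *RAB35* itself had a HIF-1α peak in 1 library. In the FAM174 family *FAM174C* had HIF-1α peaks in 3 libraries, at 91.3 and 93.0 in HCT116, and *FAM174A* in 1.

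*SAP30* and *DENND1A*, and not *FAM174B* or *NARF*, belong to the study's list of 48 HIF target genes, which was chosen on these and other libraries and is not independent of them. Of its 47 genes found in the annotation, 40 had a HIF-1α peak in all 8 libraries, with a median of 7 HIF-2α libraries. Of these 40, *SAP30* had 0 HIF-2α libraries and *KDM4C* had 1, as the fewest, and *DENND1A* and *LONP1* followed with 2 each. Outside the 40, *HERC3* (6 HIF-1α libraries) and *ESYT2* (3 HIF-1α libraries) also had 0. The paper reports every gene of its list as bound by both isoforms. Its rule was another: it took genes induced by hypoxia that were among the 3 nearest to a site. Sites had to be called in the HIF-α and the HIF-1β data. It stated no distance limit and included further cell lines. The counts here are therefore not a check of that statement.

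The core motif was counted on both strands in the central 200 bp of the stretch shared by the HIF-1α peaks. *SAP30* held 5 RCGTG copies there (2 ACGTG and 3 GCGTG), *FAM174B* 3 (1 and 2), and *NARF* and *DENND1A* 1 ACGTG each. Of the 143 sites with peaks in all HIF-1α libraries, 81.1% held at least 1 copy and 22.4% held 3 or more. The share was 58.6% of the 29 sites without a HIF-2α peak, 85.0% of 40 sites with one in 1 to 3 libraries and 87.8% of 74 sites with one in 4 to 8. All 4 members thus held a copy in this window, as most sites of this kind did. In the central 100 bp *SAP30* held 3, *FAM174B* 1, and *NARF* and *DENND1A* 0. For reference, 62.4% of all HIF-1α peaks, 54.3% of all HIF-2α peaks and 43.4% of start sites of protein-coding genes held a copy in windows of the same length.

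Over the full merged sites the copies numbered 8 at *FAM174B*, 10 at *NARF*, 7 at *SAP30* and 9 at *DENND1A*. CACGTG, whose letters hold ACGTG on both strands, occurred in the shared stretches of *FAM174B*, *NARF* and *DENND1A*, 1 each, and not in the shorter stretch of *SAP30*. Of the shared stretches of all 143 sites, with a median length of 894 bp, 33.6% held a CACGTG, and of those without a HIF-2α peak 20.7%. TGANTCA, the core letters of the AP-1 motif, was found at none of the 4 merged sites, which were 1322 to 2444 bp long. In central windows of 200 bp it was found in 18.8% of HIF-2α peaks and 6.17% of HIF-1α peaks. It was rare at sites like those of the members, with 4.90% of the 143 sites and 3.45% of those without a HIF-2α peak. The central 200 bp held 28 CpG at *FAM174B*, 27 at *NARF*, 29 at *SAP30* and 14 at *DENND1A*, beside a median of 21 over the 143 sites. The median was 20 over the 29 sites without a HIF-2α peak and also 20 over the 74 sites with one in 4 to 8 libraries. It was 18 over all HIF-1α peaks, 18 over start sites of protein-coding genes and 5 over all HIF-2α peaks.

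All 4 sites lay at promoters, as did most sites without HIF-2α peaks. The median distance to the nearest protein-coding start site was 665 bp for the HIF-1α peaks of *FAM174B*, 19.5 bp for *NARF*, 1026 bp for *SAP30* and 199 bp for *DENND1A*. Over the 29 sites without a HIF-2α peak the median was 90 bp, with 86.2% within 1 kb. Over the 40 sites with HIF-2α peaks in 1 to 3 libraries, as at *NARF* and *DENND1A*, it was 185.5 bp, with 82.5% within 1 kb. Over the 74 sites with HIF-2α peaks in 4 to 8 libraries it was 386.5 bp, with 55.4% within 1 kb. The members with no HIF-2α peak at the site, *FAM174B* and *SAP30*, were also those whose HIF-1α peaks lay farthest from the start.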

How the data were processed

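The deposited files analysed here were 16 peak lists, 1 per ChIP-seq library. Per the labels and the study's methods, the authors trimmed reads with Trim Galore 0.3.3, aligned them to GRCh37 with BWA 0.7.5a-r405, filtered them with SAMtools 0.1.19, bedtools 2.17.0 and Picard 2.0.1 for mapping quality, blacklisted regions and duplicates, and called peaks with T-PIC and MACS in control mode, keeping for their own analysis peaks of both callers that passed a read-count filter and overlapped between replicates. The lists used here are per library, with MACS named in the labels, and their peak names are numbered without gaps, so they were taken as lists from before those filters. Each deposited peak has a score from the authors' peak caller, used here only for ranks and filters because neither its scale nor the read depth is given in the sources used here. Start sites came from GENCODE release 44 mapped to GRCh37. Python 3.11.15, numpy 2.4.6 and scipy 1.17.1 were used. Percentiles, the 20 kb rule, the exact permutation test between cell lines with Benjamini-Hochberg adjustment and the motif counts are defined in the results. Functions were tested on simulated data. The 4 members, the gene lists and the tests were chosen with earlier results of these data known. Named besides the members were the 2 genes most like each (those for *DENND1A* are not reported here), list genes with a peak in all 8 HIF-1α libraries, genes of the study's list with 0 or 1 HIF-2α library and neighbors within 20 kb; other list genes were named after their values were seen. Alternatives were other distances, start sites, score limits, equal list lengths, other scales, other motif windows and leaving out each library. Sequence was read from GRCh37, and 29 peaks off the main chromosomes were not used for motifs.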

Additional observations from a re-analysis of the deposited data

How the results depend on the processing

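Counts of members with HIF-1α peaks in all 8 libraries and no HIF-2α peak depended on the rule. The count was 1 at 20 kb (*SAP30*), 0 at 1 kb, where *SAP30* kept HIF-1α peaks in 3 libraries, and 2 with 1 start site per gene or, in an alternative chosen after seeing the data, with HIF-2α peaks overlapping the site only (*FAM174B* and *SAP30* in both). With scores at or above the median or equal numbers of peaks it was also 1, but the gene was *NARF*. Leaving out each library gave 1 to 2, the higher value without T47D HIF-2α replicate 2. The percent without a HIF-2α peak, among genes with a HIF-1α peak in all 8 libraries, was 19.3 of 181 genes and ran from 12.9 (of 557 genes, at 100 kb) to 24.3 (of 107 genes, at 1 kb) under the 8 other settings, and from 19.1 to 23.7 with a library left out.

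The count of genes whose HIF-1α percentile differed between cell lines, 45 of 181, was 72 on the logit scale, 0 on the log10 score (66 genes at an unadjusted exact permutation p below 0.05), 43 of 107 genes at 1 kb, and 37 with each library's median taken out, an alternative chosen after seeing the data. Leaving out each library gave 0 to 84, with 0 without any single library of HCT116, PC3 or T47D. With the replicate block, labels exchanged only within a replicate number, it was 0 (71 genes at an unadjusted p below 0.05), where the smallest possible p is 0.0417 by construction; *DENND1A* reached it (exact permutation test, adjusted p = 0.106). Correlations of the deviations of same-numbered libraries ran from -0.0772 to 0.0950, so the percentiles showed no pairing by replicate number. Whether same-numbered libraries shared a culture is not given in the sources used here, and these correlations cannot decide it. Depth is unknown, so absent peaks set no upper limit on binding.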
